A study of Drosophila melanogaster with 4 samples.

Results

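The regions described here are the 408 peaks that GFP-tagged Lola gave on arm 2L of Drosophila melanogaster outside 1 dense stretch near the centromere. They were taken from a deposited list of 2922 peaks and make up 14.0% of it. Members are all listed peaks on 2L except the 68 that lie wholly within 21416554 to 21543532 (FlyBase release 5, the release of every coordinate below), a stretch of 127 kb. The members were thus chosen by measured values, the start and end of each peak, and the stretch was set apart because peaks lie so closely there. Position, width and score all come from the peak call that the choice used, so they are described and not tested.

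Chromatin immunoprecipitation and sequencing (ChIP-seq) was carried out on whole embryos aged 12 to 24 h. The series holds 2 libraries of chromatin precipitated with a rabbit polyclonal antibody against green fluorescent protein (GFP) and 2 libraries of input DNA. All 4 come from the strain lola-RJ-GFP, whose genotype is given as PBac{y[+]-attP-3B}VK00033 and whose transgene is the lola-RJ genomic coding region. The series title names the isoform PJ, and the labels name no mutation of the endogenous lola gene. The protocol, which names y; bw cn sp flies, pools the embryos of population cages and fixes them in 1.8% formaldehyde for 15 min, so many tissues contribute to each library. A GFP precipitation from embryos without the tag was not analysed here.

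Lola stands for longitudinals lacking and names a family of nuclear proteins that 1 gene makes by alternative splicing. Its isoforms share an N-terminal BTB domain, through which such proteins pair, and most carry their own C-terminal zinc fingers, which bind DNA. Lola is known for its part in axon growth and guidance in the embryo. Arm 2L is the left arm of chromosome 2. Its coordinates run from the telomere to the centromere, and its proximal end passes into repeat-rich pericentric heterochromatin.

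A peak is a stretch of the genome where the peak caller found more ChIP reads than its background. The list gives a start, an end and 1 score for each peak, with no value per library. No replicate error can therefore be attached to any peak, the reads behind a score are unknown, and the formula of the score is not stated. The intervals below are 95% intervals for counting error over peaks, distances or windows. Neighbouring peaks are not independent, so these intervals can be too narrow. Those of medians over the 4 peaks at the centromere end of 3L fall short of 95%. Peaks could not be assigned to genes, because the annotation used here belongs to another release.

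The edge of the dense stretch was set by a joining distance of 10 kb. The nearest member on the telomere side, at 21405626 to 21406061, had a score of 25.05 and ended 10.5 kb before the first peak inside, at 21416554 to 21417728, which had a score of 24.61. The member before it, at 21397028 to 21397442, had a score of 20.91, and the next one out, at 21344798 to 21344998, had a score of 11.53. On this side the 2 peaks next to the edge, one outside and one inside, had similar scores. On the centromere side the last peak inside, at 21542844 to 21543532, had a score of 19.12. The next members lay 15.1 kb beyond it at 21558638 to 21559029, with a score of 9.59, and 15.9 kb beyond it at 21559402 to 21560025, with a score of 75.67. The member after these, at 21570482 to 21570753, had a score of 8.19.

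Members were found along the whole arm, from 16578 to 22968758. In 23 consecutive windows of 1 Mb the number of members had a lowest value of 2, a median of 17 and a highest value of 30. The window with 2 members was the 18th from the telomere, and the window with 30 was the 22nd, from which the dense stretch had been left out. Windows 1 and 11 held 27 members each, window 4 held 25 and window 23 held 25. Density therefore went up and down along the arm with no single slope toward either end.

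**Figure D1:**
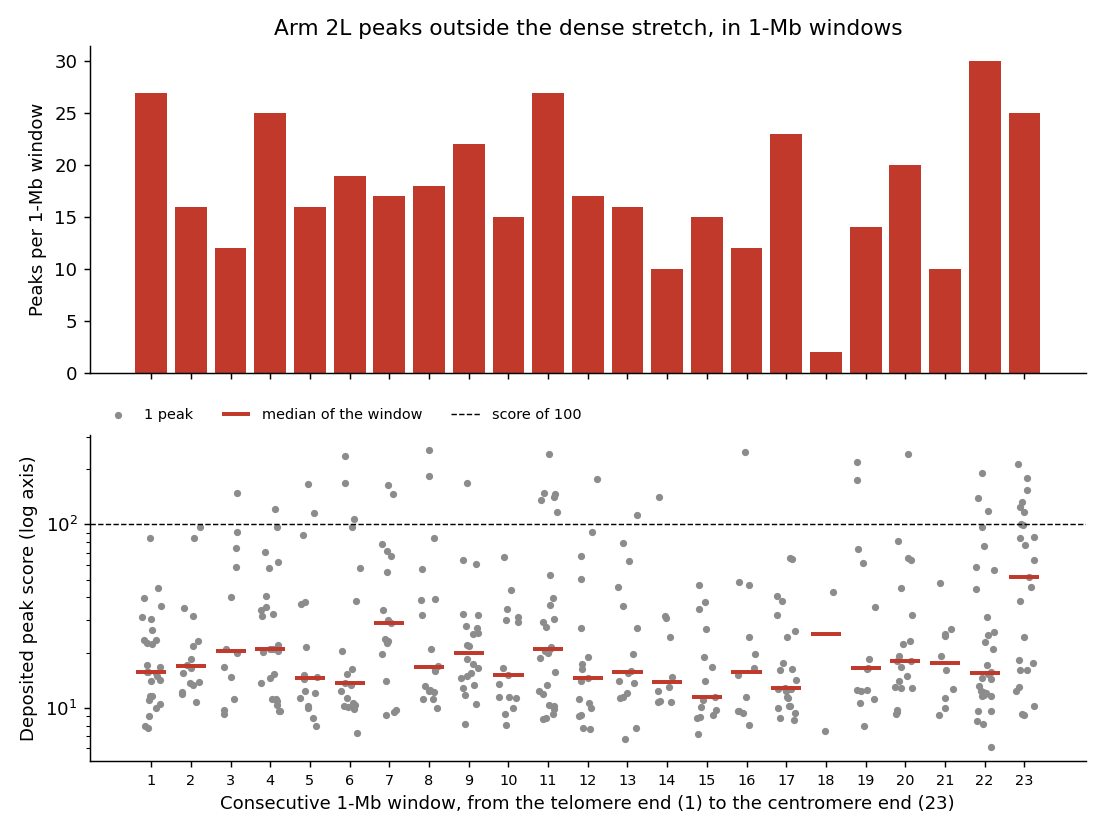
Number of peaks (upper panel, bars) and deposited score of each peak (lower panel, grey points on a log axis, with the median of each window in red and a score of 100 dashed) in 23 consecutive 1-Mb windows of arm 2L from telomere to centromere; the dense stretch is left out of window 22. Counts run from 2 in window 18 to 30 in window 22, and the median score of window 23, 51.48, is the highest of the 23 windows.

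At a finer scale, 81 of 226 whole windows of 100 kb held no member (35.8%; exact binomial interval, 29.6 to 42.5%). Single members filled 52 windows, and the mean was 1.73 ± 2.03 members per window (SD over windows). The fullest windows, at 1600001 to 1700000 and at 10200001 to 10300000, held 10 members each, and the one at 21600001 to 21700000 held 9. On the 4 other large arms the share of windows with no peak was 32.3% on X (26.2 to 38.9%), 30.7% on 3L (25.01 to 36.9%), 29.6% on 3R (24.3 to 35.4%) and 23.3% on 2R (17.8 to 29.6%). The share on 2L was the highest of the 5 arms, with an interval that overlapped each of the others, that of 2R barely (bounds 29.59 and 29.65%).

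The 2 longest stretches without a peak lay next to each other in the proximal part of the arm. From 17473201 to 18137922 no peak was listed over 665 kb, and from 16889221 to 17430377 none over 541 kb. The next were 429 kb at 1198808 to 1627406, 404 kb at 20417732 to 20822212 and 403 kb at 19887617 to 20290653. Peak-free stretches of at least 300 kb numbered 11 and took up 4.50 Mb, or 19.7% of the span without the dense stretch. The corresponding shares were 13.0% on X, 24.3% on 3L, 16.0% on 3R and 12.2% on 2R, so 2L lay within the range of the other arms. Gaps in the assembly and stretches where reads cannot be placed were not tested for.

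Strong peaks, those with a score of at least 100, numbered 35 of 408 (8.58%; exact binomial interval, 6.05 to 11.7%), against 6.84% of all listed peaks. They were spread unevenly. Window 23 held 7 of them and window 11 held 6, whereas 7 of the 23 windows held none. The median distance between neighbouring strong peaks was 322 kb, against 168 kb on X, 1153 kb on 3L, 535 kb on 3R and 188 kb on 2R. Arm 2L thus lay between X and 2R on the one side and 3R and 3L on the other.

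One long part of the arm had no strong peak. Between the strong peak at 15060678 to 15061959 (score 248.31) and that at 18702886 to 18703645 (score 174.30), 3.64 Mb apart, the 43 members had scores from 7.43 to 65.76 with a median of 12.86. Of these, 30 had a score under the median of the whole list, against 222 of the 373 members of the arm with a score under 100. This part was picked for its lack of strong peaks, which in itself lowers its scores. The median width of the 43 members was 316 bp, and their density was 11.8 per Mb, against 17.9 per Mb for the arm outside the dense stretch. The 2 longest peak-free stretches of the arm lie within these bounds. On the other large arms the greatest distance between neighbouring strong peaks was 2.71 Mb on X, 4.26 Mb on 3L, 4.07 Mb on 3R and 2.38 Mb on 2R. The distance on 2L therefore lay within the range of the other arms.

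The 25 members with the highest score had scores from 135.47 to 255.01, and member 26 had 132.59. The strongest lay at 7424291 to 7427579 with a score of 255.01. It was also the widest member, at 3289 bp, and its nearest neighbour was 106 kb away. The next, at 15060678 to 15061959, had a score of 248.31, a width of 1282 bp and a neighbour 3.41 kb away. The third, at 19790383 to 19792150, had a score of 243.01 and no neighbour within 54.4 kb. These 3 show that strong members occurred with and without close neighbours.

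Members of ranks 4 to 10 had scores between 179.43 and 240.69. They were the peaks at 10338923 to 10340066 (240.69), 5985756 to 5986777 (236.55), 18708097 to 18709109 (217.19), 22120666 to 22122117 (213.54), 21572681 to 21574126 (191.10), 7219800 to 7220892 (182.74) and 22169004 to 22170150 (179.43). Each of these 7 had a neighbour within 10 kb, but strong members as a class did not stand out in this way. Such a neighbour was found for 17 of the 35 strong members (48.6%), against 57.4% of members with a score under 100, with overlapping intervals. Of the 10 strongest members, 3 lay in the last 1.5 Mb of the arm. The last 2 Mb, which includes that part, held 56 of the 408 members. The members of any score in the last 1.5 Mb alone were not counted. In the whole list the 5 strongest members ranked 16, 17, 18, 21 and 22, so no member was among the 15 strongest peaks.

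The other 15 of the 25 had scores from 135.47 to 176.14. From the telomere to the centromere they lay at 2885770 to 2887338 (148.27), 4811334 to 4812933 (166.02), 5799972 to 5801191 (167.48), 6323598 to 6324714 (163.91), 6455156 to 6456496 (145.47), 8082992 to 8085096 (167.80), 10334061 to 10335364 (135.47) and 10386799 to 10388758 (141.63). Farther along the arm they lay at 10422348 to 10422985 (147.12), 10506548 to 10507267 (147.35), 11268862 to 11269678 (176.14), 13003845 to 13004773 (141.22), 18702886 to 18703645 (174.30), 21142227 to 21143454 (139.50) and 22735764 to 22737470 (154.60). Of the 25, 5 lay within 173 kb at 10334061 to 10507267. That part was bounded by members of the 25 and so was picked for holding them. It lay in window 11, which held 27 of the 408 members, 6 of them strong. The median width of the 25 was 1228 bp, and the narrowest, at 10422348 to 10422985, measured 638 bp. Among them 11 stood alone, with no other member within 10 kb, and 6 had a neighbour within 1 kb. Of all 408 members, 177 (43.4%) stood alone and 125 (30.6%) had a neighbour within 1 kb.

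Among the 35 strong members, 3 of the distances between neighbours were at most 20 kb. There were 7 such distances among 36 strong peaks on X, 0 among 17 on 3L, 1 among 33 on 3R and 7 among 46 on 2R. Arm 2L lay within the range of the other arms, and its 3 pairs follow. One pair, at 10334061 to 10335364 (135.47) and 10338923 to 10340066 (240.69), had centres 4.78 kb apart. A second, at 18702886 to 18703645 (174.30) and 18708097 to 18709109 (217.19), had centres 5.34 kb apart. The pair at 22120666 to 22122117 (213.54) and 22129518 to 22131797 (116.80) had centres 9.27 kb apart.

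Most neighbouring members lay closer together than the mean distance. The median distance between centres was 19.2 kb (interval, 16.0 to 26.3 kb; middle 50% of distances, 4.13 to 70.9 kb), while the mean was 56.2 kb over 406 distances. The distance across the dense stretch was not counted. Distances under 2 kb made up 19.5% (79 of 406) and distances of 100 kb or more made up 18.7% (76 of 406). On the 4 other large arms together the median was 19.4 kb (17.0 to 21.7 kb), with 18.7% of 1895 distances under 2 kb and 16.0% of 100 kb or more. The single arms had medians of 14.6 kb on X, 22.0 kb on 3L, 22.8 kb on 3R and 18.8 kb on 2R, and the value for 2L lay among them. With the dense stretch kept, the median on 2L was 13.7 kb (10.8 to 17.9 kb), below each of them. That interval overlapped those of X (12.3 to 18.5 kb), 3L and 2R and lay below that of 3R (18.6 to 27.1 kb).

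**Figure D2:**
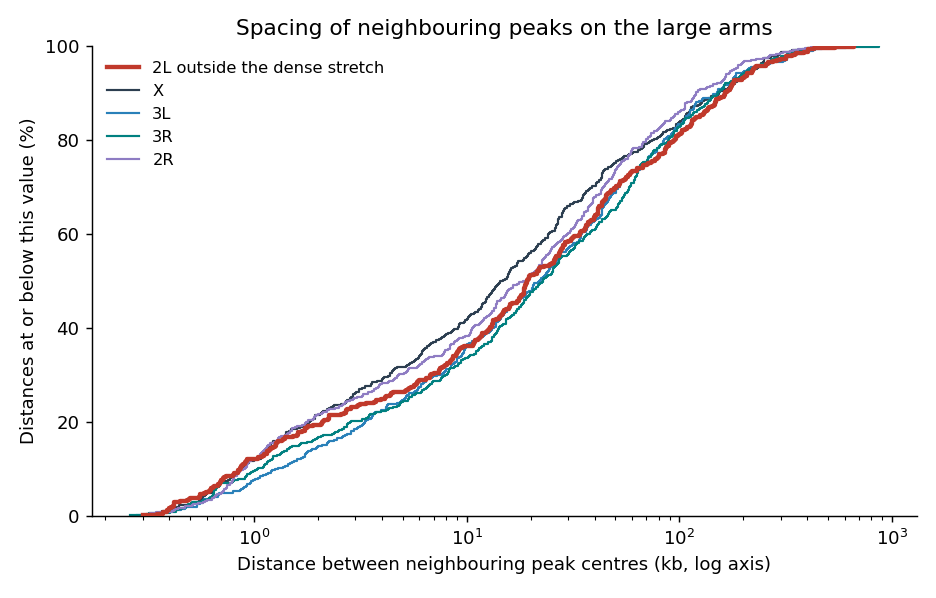
Cumulative share of distances between neighbouring peak centres (kb, log axis) on 2L outside the dense stretch (thick red line, 406 distances) and on X, 3L, 3R and 2R (thin lines). The line of 2L crosses its median at 19.2 kb, between those of X at 14.6 kb and 3R at 22.8 kb.

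Spacing was also taken for stronger and weaker members apart. For the 186 members scoring at least 19.4, the median of the whole list, neighbouring centres were a median of 78.5 kb apart (interval, 55.9 to 109 kb), against 52.7 kb (45.7 to 59.5 kb) for the same class on the other large arms together. The single arms had 42.9 kb on X, 60.8 kb on 3L, 65.4 kb on 3R and 46.1 kb on 2R, so 2L had the widest spacing of the 5 for this class, with an interval that overlapped those of the other arms. This spacing is widened by the rule, which took 68 closely spaced peaks with a median score of 26.2 off 2L and none off the other arms. The class was not measured with the dense stretch kept. For the 222 weaker members the median distance was 36.6 kb (28.3 to 52.6 kb), against 40.9 kb (34.9 to 46.6 kb) on the other arms together.

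Neighbours within 1 kb were more frequent among members of low score. Of the 102 members with scores in the lowest 25% on the arm, 43.1% (33.4 to 53.3%) had a neighbour within 1 kb, edge to edge, against 20.6% (13.2 to 29.7%) of the 102 members in the highest 25%. The same order was seen on each of the other large arms, with 39.3% against 19.7% on X, 26.3% against 16.8% on 3L, 38.6% against 17.3% on 3R and 44.5% against 29.4% on 2R, and the intervals overlapped on 3L and 2R. At a distance of 10 kb the shares on 2L were 64.7% (54.6 to 73.9%) for the lowest 25% and 50.0% (39.9 to 60.1%) for the highest 25%, with overlapping intervals. Of the gaps on 2L, 8.62% measured 200 bp or less (35 of 406), and the smallest was 50 bp. Close weak peaks and the outer parts of 1 broader region cannot be told apart in a list without read counts.

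When members up to 10 kb apart, edge to edge, were taken as 1 group, the 408 members formed 261 groups. Single members numbered 177 (43.4%; 38.5 to 48.3%), and 49 groups held 2 members, 22 held 3 and 6 held 4. In the pairs the higher score had a median of 29.1 and the lower 11.2, with a median gap of 1.21 kb. The median ratio of the higher to the lower score was 2.08 on 2L, against 1.96 on X, 1.84 on 3L, 2.00 on 3R and 1.81 on 2R. Sorting each pair by score gives a higher and a lower value in any list, so these values only describe the pairs.

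Groups of 5 or more members numbered 7 and held 43 members, or 10.5% (7.73 to 13.9%), against 10.6% on the other large arms together. The rule lowers this share, since the 68 peaks left out form 1 further group on 2L. No group was left out on the other arms, which had 33 such groups, or 29 with the largest group of each left out. The first of the 7 on 2L lay at the telomere end at 16578 to 21344, where 5 peaks of 232 to 480 bp had scores of 30.62, 16.66, 23.28, 14.18 and 7.80. The second was the largest, with 10 peaks at 1627407 to 1657251, 9 of them with scores from 10.76 to 23.15 and 1, at 1648622 to 1649682, with 84.44. The third lay at 4996980 to 5004179, where its 5 peaks had scores of 37.69, 9.94, 20.32, 97.16 and 11.23. In these last 2 groups a single peak stood well above the rest.

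The fourth group, at 11806003 to 11809369, was the most compact: its 5 peaks covered 83.0% of 3.37 kb and had scores of 7.76, 9.08, 11.13, 67.13 and 17.30. The fifth, at 12520210 to 12546798, was loose, with 5 peaks covering 9.90% of 26.6 kb and its stronger peaks, of 45.48 and 62.76, at its outer edges. The sixth, at 21621217 to 21629945, began 77.7 kb beyond the dense stretch, with 6 peaks of scores from 8.47 to 15.29 within 2.83 kb and a seventh of 56.01 farther on. The seventh, at 22120666 to 22135097, held 2 strong peaks, of 213.54 and 116.80, followed by 4 peaks of 9.21 to 18.14. It was the only one of the 7 groups with a strong member.

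**Figure D3:**
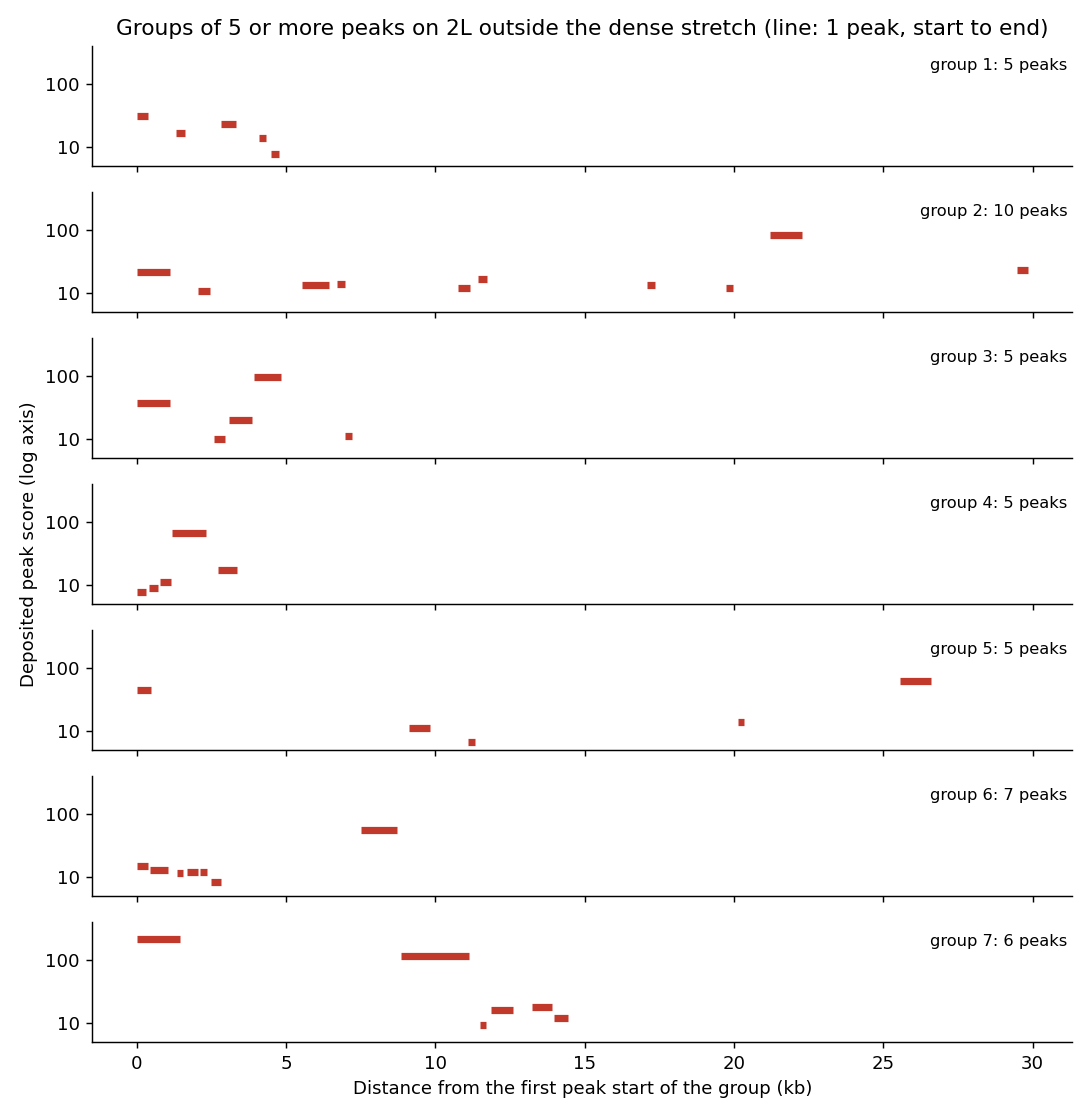
Each panel shows 1 of the 7 groups of 5 or more members, telomere side at the top; each line is a peak drawn from its start to its end, at the distance from the first peak start of the group (kb) and the height of its deposited score (log axis). Group 4 fills most of its 3.37 kb, group 5 leaves most of its 26.6 kb free, and the peaks of group 7 at 213.54 and 116.80 are the only ones over 100.

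Widths ran from 201 to 3289 bp with a median of 428 bp (interval, 393 to 463 bp; middle 50% of members, 285 to 737 bp). The minimum of 201 bp was the width of 10 members, 62 members (15.2%) were at least 1 kb wide and 7 were at least 2 kb wide. Besides the strongest peak, the widest were those at 9567606 to 9570197, with 2592 bp and a score of 66.51, at 18150106 to 18152651, with 2546 bp and 61.81, at 22129518 to 22131797, with 2280 bp and 116.80, and at 65302 to 67577, with 2276 bp and 84.26. Of these 5 widest members, 2 were strong. Median widths on the other arms were 459 bp on X, 417 bp on 3L, 433 bp on 3R and 467 bp on 2R.

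Width and score went together, with a Spearman rho of 0.80 across the 408 members, which share 1 set of libraries and 1 peak call. The value was 0.80 on X, 0.74 on 3L, 0.77 on 3R and 0.80 on 2R. Members with a score under 10 had a median width of 246 bp (n = 57), those from 10 to under 15 had 294 bp (n = 112) and those from 15 to under 30 had 444 bp (n = 109). From 30 to under 50 the median was 737 bp (n = 50), from 50 to under 100 it was 884 bp (n = 45), and from 100 it was 1282 bp (n = 35). On the other large arms together the same 6 classes had medians of 255, 301, 476, 671, 872 and 1207 bp. Each class of 2L had an interval that overlapped that of the other arms.

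**Figure D4:**
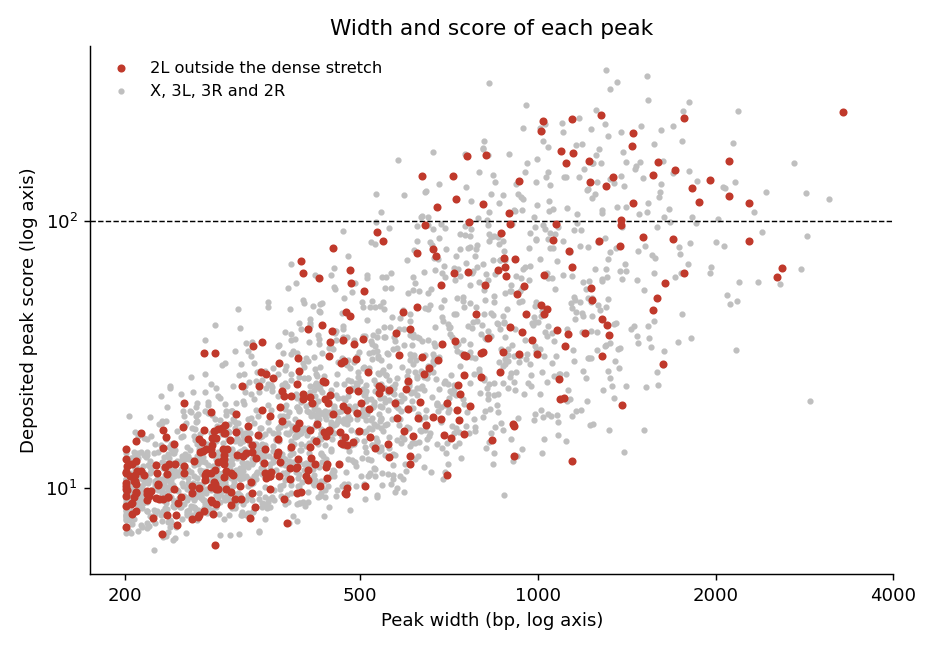
Width (bp, log axis) against deposited score (log axis) for each of the 408 members (red) and each peak on X, 3L, 3R and 2R (grey), with a score of 100 dashed. Most members lie within the cloud of the other arms, whose widest peak measures 3107 bp, and the rightmost red point is the member of 3289 bp with a score of 255.01.

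The median score of the members was 17.0 (interval, 15.8 to 19.6; middle 50% of members, 11.5 to 37.5; range, 6.14 to 255.01). It was 18.2 on X, 17.6 on 3L, 18.3 on 3R and 19.4 on 2R. Scores of 50 or more were held by 19.6% (80 of 408; 15.9 to 23.8%), against 17.1% (15.4 to 18.8%) on the other large arms together. The share of strong peaks, 8.58% on 2L, compared with 7.71% on X (5.46 to 10.5%), 3.78% on 3L (2.22 to 5.98%), 6.51% on 3R (4.52 to 9.02%) and 9.68% on 2R (7.18 to 12.7%). The interval of 2L overlapped those of X, 3R and 2R and barely missed that of 3L (bounds 6.05 and 5.98%). The rule raises the share on 2L, since none of the 68 peaks left out is strong. With the dense stretch kept it was 7.35% (5.17 to 10.1%), and with the last 1 Mb left out 7.31% (4.91 to 10.4%), and both overlapped that of 3L. The median score of 2L had an interval that overlapped that of the other large arms together (18.2; 17.5 to 19.05). Its order turned with the dense stretch kept (18.9 on 2L) and with peaks up to 1 kb apart joined, at 20.9 on 2L against 20.7 on the others.

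The last 1 Mb of the arm before the centromere, a window chosen after the values were seen, held members of higher score and greater width. Its 25 members had a median score of 51.5 (17.5 to 99.0) and a median width of 765 bp (538 to 1386 bp), against 16.5 (15.4 to 19.1) and 412 bp (382 to 444 bp) for the other 383 members. Of the 25, 7 were strong (28.0%; exact binomial interval, 12.1 to 49.4%), against 28 of 383 elsewhere (7.31%; 4.91 to 10.4%). The intervals did not overlap for width and for the share of strong peaks, and they did for the median score. Over the last 2 Mb, 10 of 56 members were strong (17.9%; 8.91 to 30.4%), with a median score of 21.8, and this share overlapped that of the other 352 members (7.10%; 4.65 to 10.3%). The last 0.5 Mb held 9 members with a median score of 64.1 (17.5 to 100.7). The final 7 members of the arm included the peaks at 22735764 to 22737470 (154.60), 22960774 to 22962159 (100.69) and 22967630 to 22968758 (76.93).

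Of the other large arms, 2R had a median score of 37.9 (15.3 to 62.3) in the 25 peaks of its 1 Mb at the centromere end, and 3R had 26.7 (14.3 to 45.4) in 29 peaks. X and 3L had only 6 and 4 peaks there, with medians of 68.6 (7.93 to 150.6) and 92.2 (79.5 to 157). The median in that end was above that of the rest on each of the 5 arms, and the arms differed in how many peaks it held. Strong peaks there numbered 2 of 6 on X, 1 of 4 on 3L, 4 of 29 on 3R and 6 of 25 on 2R. Elsewhere on these arms the shares were 7.38, 3.59, 6.07 and 8.89%, with intervals that overlapped on each. Median widths there were 951, 981.5, 722 and 711 bp, against 453, 414, 429 and 450 bp elsewhere. The intervals for width overlapped except on 3L. With 1 Mb, a higher strong share and a greater width at this end were therefore seen on each of the 5 arms, as with 2 Mb. With 0.5 Mb both were seen on 2L, 3R and 2R. X then had 1 peak there, with a score of 7.93 and a width of 300 bp. On 3L the 2 peaks there were not strong. At the telomere end of 2L the 27 members of the first 1 Mb had a median score of 15.6, none was strong (0%; exact binomial interval, up to 12.8%), and the highest score was 84.26. In the 1 Mb at the telomere end, strong peaks numbered 0 of 17 on X, 1 of 26 on 3L, 4 of 20 on 3R and 0 of 21 on 2R. Mappability and background in input DNA at the arm ends were not tested.

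Outside the dense stretch, 2L carried 17.9 peaks per Mb of its span (Poisson interval, 16.2 to 19.7), the lowest of the 5 large arms. The others carried 20.9 on X (19.0 to 22.8), 18.4 on 3L (16.8 to 20.2), 18.2 on 3R (16.6 to 19.8) and 22.5 on 2R (20.5 to 24.6). Its interval overlapped those of X, 3L and 3R and lay below that of 2R. This density is lowered by the rule itself, which took the densest stretch off 2L and off no other arm. When the largest group was taken off each of the others as well, with its sequence, their joint density was 19.5 per Mb, against 19.8 per Mb as listed. With the dense stretch kept, 2L had 20.7 peaks per Mb (18.9 to 22.7), above the other large arms together and above 3L and 3R. That interval overlapped those of each of the 4 other large arms and of these arms together (18.9 to 20.7).

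**Figure D5:**
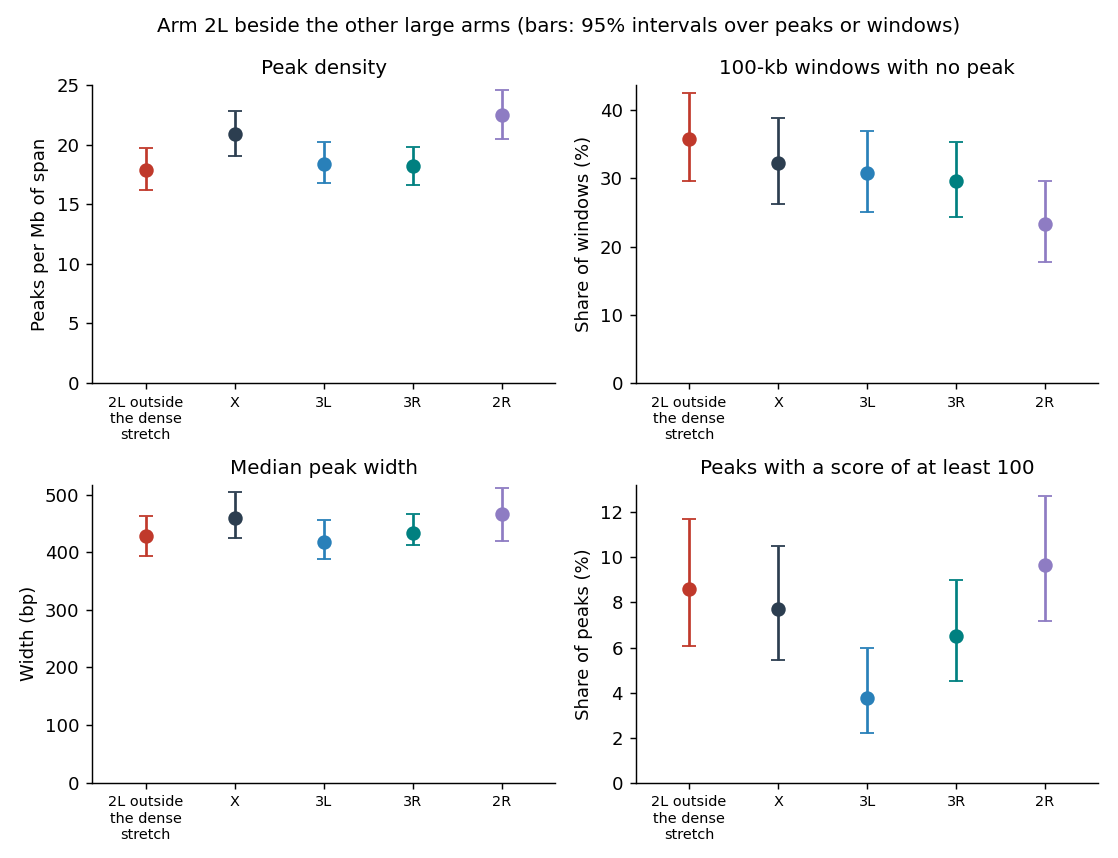
Peak density (peaks per Mb of span), share of 100-kb windows with no peak (%), median width (bp) and share of strong peaks (score from 100 upward, %) for 2L outside the dense stretch (red, left) and for X, 3L, 3R and 2R; points are the values and bars the 95% intervals over peaks or windows. Density is 17.9 per Mb on 2L and 18.2 to 22.5 on the other arms, and the share of strong peaks is 8.58% on 2L and 3.78 to 9.68% on the others.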

How the data were processed

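ChIP-seq libraries of GFP-tagged Lola (2 GFP ChIP, 2 input DNA) had been reduced by the authors to 1 peak list with 1 deposited score per peak. Per the submitters' processing notes, the build was BDGP5 and the tools named are MACS2, BWA and CASAVA (1.7.0.2 and 1.7.0.3). Per the file headers, coordinates are FlyBase release 5. The sources used here give no cut-offs, score formula, pooling of replicates or depth, and how they affect peak number and width is unknown. Peak start and end are the authors' positions. The gene table used here is release 6, so no gene, motif or sequence was assigned to a peak.

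Distances are between centres, groups join gaps up to 10 kb, and spans run from the first to the last peak, less the dense stretch on 2L. Intervals are exact binomial (shares), exact Poisson (densities) and binomial-rank (medians), at 95%. For medians over the 4 peaks at the centromere end of 3L the interval is the full range, which falls short of 95%. No test was run, since the members were chosen by position and share 1 peak call. Regions named were the 25 highest scores, the 5 widest, groups of 5 or more, the 5 longest gaps and the edges of the stretch. The strong pairs, the fullest windows and the strong-free part were added after their values were seen. So were the last 1 Mb, the last 1.5 Mb and the 173-kb part of window 11. Members, lists and thresholds were chosen with earlier results of these data known. Functions were tested on simulated lists. Python 3.11.15, NumPy 2.4.6, SciPy 1.17.1, pandas 2.3.3 and matplotlib 3.10.9 were used.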

Additional observations from a re-analysis of the deposited data

How the results depend on the processing

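No paired analysis was possible because each peak carries 1 value and names no library, so leaving out a replicate was not possible either. Of 42 alternatives on 2L, 22 stayed within the interval of the value reported (within 1.5 times for counts of groups) and 20 left it. Leaving out the largest group on the other arms changes nothing on 2L. It was applied to every measure but the score at the centromere end, and these alternatives are among the 22 by construction. The 22 therefore overstate how stable the values on 2L were. Some of the 20 changed the measure itself. These were the score minimum at the list's median, the 5-kb neighbour distance, the 50-kb windows and the score of at least 50. Leaving the interval there does not by itself show an unstable value. With peaks up to 1 kb apart joined, 2L had a density of 14.7 per Mb, a median spacing of 31.1 kb, 39.3% of peaks with a neighbour within 10 kb (56.6% as listed), a median width of 526 bp, a median score of 20.9 and a rho of 0.71. With scores of at least the list's median, these were 8.15 per Mb, 78.5 kb, 26.3%, 753 bp and rho 0.60. Of 100-kb windows 50.0% were then empty, against 48.6% on the other large arms together. Groups of 5 or more numbered 0, against 2 on the other large arms. With the dense stretch kept, density was 20.7 per Mb, spacing 13.7 kb, the share with a neighbour within 10 kb 62.8% and width 463.5 bp (median). A neighbour distance of 5 kb gave 46.3%, windows of 50 kb gave 54.9% empty and a score of at least 50 gave 19.6% of members.

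The order of 2L and the 4 other large arms together changed in 8 alternatives. Keeping the dense stretch put 2L above them in density, share with a neighbour, width and score. Joining up to 1 kb put it above them in spacing and median score, and the higher score minimum in spacing and width. The cause was not tested. Leaving out the last 1 Mb, added after the data were seen, gave a median score of 16.5, a median width of 412 bp and 7.31% strong peaks. Depth is unknown, so the precision of single scores is too.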

Other observations

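The assembled heterochromatin of the arm, listed apart as 2LHet, carried 1 peak, at 32425 to 35047 with a width of 2623 bp and a score of 121.98. It is no member and entered no comparison. The dense stretch left out had a median score of 26.2 and a median width of 966 bp over 68 peaks, with a highest score of 94.26. Scores repeated within the arm: the 408 members had 364 distinct values, and the most frequent, 12.32, belonged to 5 members. X had 421 distinct values among 467 peaks and 3L had 381 among 450.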
